A study of Mus musculus with 6 samples.

Results

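Carbonic anhydrases interconvert carbon dioxide and bicarbonate, and bicarbonate transporters carry the bicarbonate across the plasma membrane. Tumor cells that ferment glucose release lactate and protons, and the enzymes on the cell surface together with the transporters keep the cytosol from acidifying while the surroundings become acid. Car9 is among the best known target genes of the hypoxia-inducible factor HIF-1, and CAIX protein is widely used as a stain for hypoxic regions of tumors.

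6 mouse genes of this system were followed among the 22880 genes of the table: the cytosolic carbonic anhydrases Car2 and Car13, the membrane-bound carbonic anhydrases Car9 and Car12 whose active sites face outward, the chloride-bicarbonate exchanger Slc4a2 (AE2) and the sodium-bicarbonate cotransporter Slc4a7 (NBCn1). They were picked by gene name, as carbonic anhydrases and acid-base transporters, with earlier results of these data known. RNA was sequenced from MC-38GFP cells, a mouse colon adenocarcinoma line that expresses green fluorescent protein (GFP), which had been grown as orthotopic tumors in the cecum wall of C57BL/6J mice. 3 Mock libraries came from cells transduced with pLKO.1-puro, an shRNA vector with puromycin selection, and labelled as mock for knockdown, and 3 HIF-1α-KD libraries from cells transduced with pLKO.1-puro and labelled as knocked down for HIF-1 alpha, the oxygen-regulated subunit of HIF-1. None of the cells had been passaged in vivo beforehand. Before RNA extraction, living cells were sorted for GFP and against CD45 and CD31, which mark leukocytes and endothelium. The age of the mice, the interval from injection to sorting for these libraries, whether each line was a clone or a pool, and whether a library holds 1 tumor are not given in the sources used here, so the p-values measure the spread between libraries.

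Reads on genes ranged from 19845852 to 30809138 per library. Hif1a itself was lower in each HIF-1α-KD library than in each Mock library, with normalized counts of 6914, 5424 and 4945 in Mock against 697.3, 3142 and 1928 in HIF-1α-KD libraries. The log2 fold change was -1.82 (standard error, SE, 0.46, limma adjusted p = 0.219), and it was -1.21 without HIF-1α-KD replicate 1 and -2.30 without HIF-1α-KD replicate 2. A normalized count is the number of reads on a gene divided by a factor for its library. The sorted cells were checked against cell type markers. The 7 carcinoma markers Epcam, Krt8, Krt18, Krt19, Cdh1, Cldn4 and Cldn7 together reached normalized counts of only 62.2 to 125 in 5 libraries. In Mock replicate 3 they reached 561. The enterocyte carbonic anhydrase Car4 had no read in any library. By contrast, 6 fibroblast-associated genes summed to between 18725 and 47458. Dcn alone made up 15050 to 42580 of that sum, Pdgfra 3043 to 7875 and Lum 222 to 1581. Pi16, Fap and Dpt lay between 6.2 and 655 in every library. The defining epithelial markers of a colon carcinoma were therefore near absent, and the cells are called here by their line and their gate. Summed leukocyte markers were 4161 to 4180 in Mock libraries, 2645 and 2906 in HIF-1α-KD replicates 1 and 2, and 12901 in HIF-1α-KD replicate 3. Lyz2 alone made up 8877 of the sum in HIF-1α-KD replicate 3. Cd79a was instead lowest there (119.0, against 159.4 to 315.8 in the other libraries), and Cd3e had no more than 2 reads in any library. The other genes of the list were each highest in HIF-1α-KD replicate 3. Red cell markers summed to between 627 and 1490 in Mock and between 6.0 and 575 in HIF-1α-KD libraries, and endothelial markers to between 505 and 623 and between 315 and 483, respectively. Cdh5 alone made up 422 to 569 of the endothelial sum in Mock and 198 to 396 in HIF-1α-KD libraries. Mean counts of Pecam1 (46.6 in Mock against 54.6), Kdr (3.2 against 5.6) and Tek (8.6 against 25.1) were instead higher in HIF-1α-KD cells. Those of Emcn, Cldn5 and Tie1 were lower, at few reads.

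To show the stretch of DNA in front of the genes whose transcripts bear on the comparison, promoter sequences (250 bases before to 50 bases after the annotated start, RefSeq, build GRCm38.p6, plus strand) were taken for Car9, for Car12, the other outward-facing carbonic anhydrase, and for Slc16a3, the lactate exporter with the smallest p-value among the other pH genes. HIF dimers bind the core letters ACGTG or GCGTG, and matches to either on either strand are in capitals.
Car9, chr4:43506776-43507075: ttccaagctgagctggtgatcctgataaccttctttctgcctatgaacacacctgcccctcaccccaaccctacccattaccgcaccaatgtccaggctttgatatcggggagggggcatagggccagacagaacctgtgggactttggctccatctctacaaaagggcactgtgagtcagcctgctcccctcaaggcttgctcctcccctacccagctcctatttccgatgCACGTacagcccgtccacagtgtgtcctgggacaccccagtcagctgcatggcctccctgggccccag
Car12, chr9:66713436-66713735: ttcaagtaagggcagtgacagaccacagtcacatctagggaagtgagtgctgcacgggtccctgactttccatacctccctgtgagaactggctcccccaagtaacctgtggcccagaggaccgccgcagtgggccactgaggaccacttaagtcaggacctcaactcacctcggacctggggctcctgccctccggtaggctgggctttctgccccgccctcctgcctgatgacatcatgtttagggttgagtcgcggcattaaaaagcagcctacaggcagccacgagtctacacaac
Slc16a3, chr11:120948817-120949116: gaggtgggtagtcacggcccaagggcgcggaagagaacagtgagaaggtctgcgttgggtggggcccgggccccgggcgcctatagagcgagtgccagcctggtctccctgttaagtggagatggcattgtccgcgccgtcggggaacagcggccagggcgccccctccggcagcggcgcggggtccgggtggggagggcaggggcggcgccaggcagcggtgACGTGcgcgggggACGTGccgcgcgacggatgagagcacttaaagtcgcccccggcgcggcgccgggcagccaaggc
The Car9 promoter held 1 ACGTG, on the opposite strand and therefore printed as its reverse complement, at position -18 from the start. The Slc16a3 promoter held 2 ACGTG on its own strand, at -27 and -14. Neither motif stood in the Car12 window. The 1 Slc4a7 window of the table, from 14718534 to 14718833 on chromosome 14, held neither motif, but it lies inside the gene as GENCODE places it, so that the first annotated start of Slc4a7 was not searched. The windows of Slc16a3 and Slc4a2 likewise lie within the GENCODE span of their gene. The Car9 window crosses the GENCODE start of Car9 at 43506966, and its RefSeq start and the motif at -18 lie inside the gene as GENCODE places it. Of the 2 Slc4a2 promoters in the table, 1 held 2 GCGTG and the other held none. Among 32851 promoters of the same length, 19.6% held ACGTG, 32.4% GCGTG and 43.8% at least 1 of them. These are matches of letters and not binding sites. Car2 and Car13 had no entry in the promoter set used here, so their promoters were not searched.

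Car9, the enzyme of hypoxic tumor cells, was far lower in HIF-1α-KD than in Mock cells. Car9 (CAIX, ENSMUSG00000028463, GRCm38 chromosome 4, 43506966 to 43513729, plus strand, 11 exons) gave normalized counts of 4470, 3382 and 4356 in Mock libraries, against 212.3, 663.1 and 1041 in HIF-1α-KD libraries. Each HIF-1α-KD library thus lay well below each Mock library, and on the log2 scale the HIF-1α-KD libraries spread more (SD 1.18) than the Mock libraries (SD 0.22). Group means were 4069 ± 598 for Mock and 639 ± 415 for HIF-1α-KD cells (SD, n = 3 each), so that HIF-1α-KD cells held 15.7% of the Mock level. The log2 fold change was -2.93 (SE 0.49, 95% interval -4.04 to -1.83), with an unadjusted p = 0.000225 and an adjusted p = 0.0553 in limma, two-sided. It was the 11th lowest log2 fold change of the 12014 genes tested. Leaving out single libraries kept the log2 fold change between -3.42 and -2.28, with an adjusted p of 0.267, 0.180 and 0.202 without Mock replicate 1, 2 and 3 and of 0.00934, 0.109 and 0.0470 without HIF-1α-KD replicate 1, 2 and 3. DESeq2 gave an adjusted p of 0.00207 and edgeR of 0.0730. HIF-1α-KD replicate 1 was the lowest library for both Hif1a and Car9, but replicate 2 had more Hif1a and less Car9 than replicate 3. HIF-1α-KD replicate 3, the library with the highest sum of leukocyte markers, had the most Car9 of its group. The part of leukocytes in its Car9 count was not tested. In sorted bulk samples, fewer cells that express a gene and less RNA of it per cell cannot be told apart. An antisense gene, Gm12454, overlaps Car9, and whether the authors counted by strand is not given in the sources used here.

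**Figure D1:**
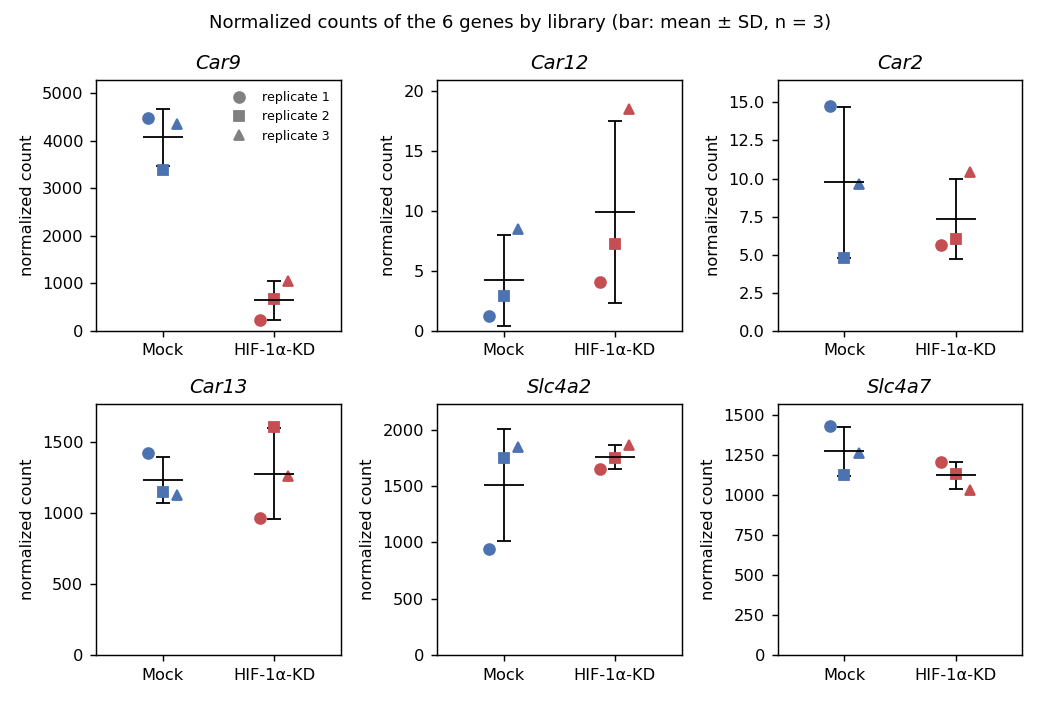
Normalized count (vertical axis, linear, from 0, a different range in each panel) of the 6 genes in the 3 Mock (blue) and 3 HIF-1α-KD (red) libraries, with marker shape for replicate number, a horizontal bar for the mean and whiskers for the SD. The groups are apart for Car9 (3382 to 4470 against 212.3 to 1041) and overlap in the other 5 panels, of which Car12 and Car2 stay below 19.

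The cytosolic enzyme Car13 had nearly equal mean levels in the groups. Car13 (ENSMUSG00000027555, GRCm38 chromosome 3, 14641727 to 14663002, plus strand) gave normalized counts of 1423, 1151 and 1132 in Mock against 966, 1607 and 1264 in HIF-1α-KD libraries. The HIF-1α-KD libraries held both the lowest and the highest value. Group means were 1235 ± 163 for Mock and 1279 ± 321 for HIF-1α-KD cells (SD, n = 3 each). The log2 fold change of 0.027 (SE 0.21, limma adjusted p = 0.967) had a 95% interval of -0.44 to 0.50, which excludes a change of the size seen for Car9 but not a smaller one. Its sign depended on single libraries, with a range of -0.15 to 0.21 when each was left out.

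Slc4a2, which exports bicarbonate in exchange for chloride, gave normalized counts of 936.8, 1748 and 1846 in Mock against 1655, 1749 and 1868 in HIF-1α-KD libraries (ENSMUSG00000028962, GRCm38 chromosome 5, 24423837 to 24440950, plus strand). A single low library, Mock replicate 1, set the difference of the means, 1510 ± 499 against 1757 ± 107 (SD, n = 3 each). The log2 fold change of 0.28 (SE 0.25, limma adjusted p = 0.676, 95% interval -0.29 to 0.85) became -0.033 without that library. Fastk and Gm22333 overlap Slc4a2 on the opposite strand.

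Slc4a7, which brings bicarbonate into the cell with sodium, gave normalized counts of 1433, 1126 and 1264 in Mock against 1205, 1132 and 1034 in HIF-1α-KD libraries (ENSMUSG00000021733, GRCm38 chromosome 14, 14702279 to 14799940, plus strand). The ranges overlapped, since Mock replicate 2 lay below 2 of the HIF-1α-KD libraries. With means of 1274 ± 154 and 1124 ± 85.8 (SD, n = 3 each), the log2 fold change was -0.18 (SE 0.15, limma adjusted p = 0.666), and its 95% interval of -0.53 to 0.17 was the narrowest of the 4 genes tested.

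Car2 and Car12 were barely detected and did not pass the filter on low counts. Car12 (CAXII, ENSMUSG00000032373, GRCm38 chromosome 9, 66713686 to 66766845, plus strand), which like Car9 is found on tumor cell surfaces, had 1, 3 and 7 reads in Mock and 5, 6 and 16 reads in HIF-1α-KD libraries. In normalized counts these are 1.2, 2.9 and 8.5 against 4.0, 7.2 and 18.5. The highest Mock library exceeded both lower HIF-1α-KD libraries, and the difference of the mean log2 values, 1.10 higher in HIF-1α-KD cells, was not tested in the filtered table. With no filter the limma adjusted p was 0.623, and a pseudocount of 10 brought the difference to 0.45. HIF-1α-KD replicate 3, which held the most Car12 reads, also had the highest sum of leukocyte markers. The part of leukocytes in the Car12 counts was not tested. Car2 (CAII, ENSMUSG00000027562, GRCm38 chromosome 3, 14886273 to 14900770, plus strand), the abundant cytosolic enzyme of red cells, osteoclasts and kidney, had 12, 5 and 8 reads in Mock and 7, 5 and 9 reads in HIF-1α-KD libraries, 46 in all. Its normalized counts of 14.8, 4.8 and 9.7 against 5.6, 6.0 and 10.4 overlapped (limma adjusted p = 0.854 with no filter). Red cell markers, whose 5 tested genes were all lower in HIF-1α-KD cells by unadjusted p and fold change (3.46% of all genes), were not tested for their part in the Car2 counts. At this depth no difference was detectable for either gene.

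Of the 6 genes, 4 were tested. At an adjusted p under 0.05, 0 were called by limma or by the quasi-likelihood test of edgeR and 1, Car9, by DESeq2, where limma and edgeR each called 0.391% of all genes tested and DESeq2 2.36%. The limma calls were 0.383% of genes in the lower and 0.00832% in the higher direction. At an unadjusted p under 0.05, 1 was called against 12.7% of all genes. The criterion of an unadjusted p under 0.05 with a fold change of at least 1.5 was met by 1 gene, Car9, in the lower direction (3.46% of all genes) and by 0 in the higher direction (4.02% of all genes). The groups did not overlap for 1 of the 4, compared with 19.2% of all genes. The median log2 fold change was -0.075 for the 4 genes and 0.021 for all tested genes.

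**Figure D2:**
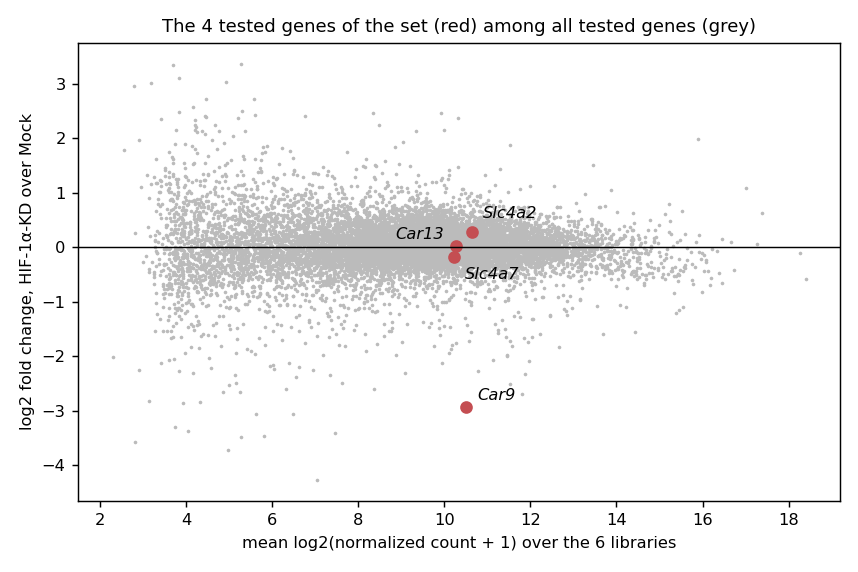
Log2 fold change of HIF-1α-KD over Mock (vertical axis) against the mean of log2 of the normalized count plus 1 over the 6 libraries (horizontal axis) for the 12014 genes tested (grey), with the 4 tested genes of the set in red. Car9, at -2.93, lies below nearly all genes of its level, and Car13, Slc4a2 and Slc4a7 lie within the grey band, between -0.18 and 0.28.

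FPKM, which divides by gene length, allows levels to be set beside each other. In Mock libraries Car9 was the highest of the 6 genes with 189 ± 21.4 FPKM (SD, n = 3), followed by Slc4a2 with 42.6 ± 14.6, Car13 with 21.4 ± 2.47, Slc4a7 with 6.87 ± 0.62, Car2 with 0.35 ± 0.17 and Car12 with 0.080 ± 0.071 FPKM. The ranges of neighbours in this order did not overlap between libraries. In HIF-1α-KD libraries Slc4a2 led by the deposited FPKM with 51.4 ± 4.21, and Car9 held 31.3 ± 20.7 FPKM. With libraries at 10.02, 32.59 and 51.31 FPKM, Car9 then overlapped both Slc4a2 (47.04 to 55.44) and Car13 (16.95 to 29.36). Slc4a7 stood at 6.30 ± 0.36, and Car2 (0.28 ± 0.11) and Car12 (0.20 ± 0.16) overlapped each other. Among all tested genes Car9 ranked 559th by mean FPKM in Mock and 3669th in HIF-1α-KD cells, whereas Car13 moved only from 4591st to 4549th. The order of Slc4a2 and Car13 depends on the length used. The width that the authors assigned to Slc4a2 is 1420 bases, and its longest coding transcript has 4264 bases. With the latter, Slc4a2 would hold 8.57 to 17.1 FPKM in Mock libraries, below Car13 with 19.3 to 24.1. In HIF-1α-KD libraries, transcript lengths would give 15.7 to 18.5 FPKM for Slc4a2, 17.0 to 29.4 for Car13 and 4.23 to 21.7 for Car9. These ranges overlap, so the lead of Slc4a2 there also depends on the length used.

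Car9 made up most of the carbonic anhydrase transcripts of Mock cells. Over the 16 carbonic anhydrase genes of the table it took 69.0%, 79.0% and 80.4% of the summed FPKM in Mock libraries and 18.7%, 33.6% and 39.2% in HIF-1α-KD libraries. The groups were apart by more than their ranges, at 76.1% ± 6.19 against 30.5% ± 10.6 (SD, n = 3 each, exact permutation test, two-sided, p = 0.1, the smallest that 3 against 3 can give). The sum over the family was 295, 209 and 248 FPKM in Mock and 53.7, 97.0 and 131 FPKM in HIF-1α-KD libraries (exact permutation p = 0.1). Since Car9 made up most of the family in Mock cells, the tests of its share and of the sum are not independent of the Car9 difference given above. Without Car9, the sum was 61.4 ± 26.2 FPKM in Mock and 62.5 ± 18.0 FPKM in HIF-1α-KD cells (SD, n = 3 each, exact permutation p = 1), so the lower family total lay with Car9. With single libraries left out, that remainder differed by -7.60 to 16.2 FPKM between HIF-1α-KD and Mock cells. Adjusted over the 4 tests of family values, these p-values were 0.2, 0.2 and 1. The remainder was mainly Car13 and the secreted enzyme Car6. Car6 gave normalized counts of 1778, 453.6 and 567.7 in Mock against 361.1, 757.8 and 1276 in HIF-1α-KD libraries, with overlapping groups (log2 fold change -0.13, limma adjusted p = 0.944), and its sign reversed without Mock replicate 1 or HIF-1α-KD replicate 1. The width given for Car9 is 855 bases against 2023 in its longest coding transcript, and with transcript lengths its share was 62.1% ± 7.01 against 18.7% ± 7.44 (SD, n = 3 each).

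**Figure D3:**
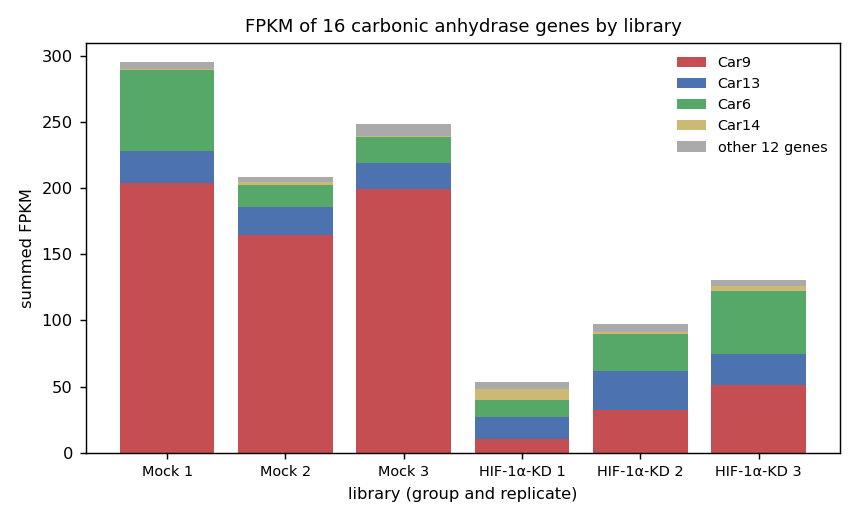
Summed FPKM of 16 carbonic anhydrase genes (vertical axis, linear, from 0) in each of the 6 libraries, stacked by gene, with the 12 lowest genes joined in grey. Car9 (red) fills 69.0% to 80.4% of the Mock bars and 18.7% to 39.2% of the HIF-1α-KD bars, and the part above it has a similar mean height in both groups.

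The same view of the 10 SLC4 bicarbonate transporters showed overlapping sums. Their summed FPKM was 68.4 ± 16.6 in Mock and 78.8 ± 3.72 in HIF-1α-KD cells (SD, n = 3 each, exact permutation p = 0.5, 0.667 adjusted over the 4 tests). Slc4a2 took 61.1% ± 7.75 of it in Mock and 65.1% ± 2.69 in HIF-1α-KD cells, and Slc4a7 took 10.7% ± 4.03 and 8.02% ± 0.82 (SD, n = 3 each). With the lengths of the longest coding transcripts, the share of Slc4a7 was 23.7% ± 7.26 against 18.3% ± 1.29 and that of Slc4a2 50.7% ± 9.29 against 54.6% ± 4.41.

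The other genes that move acid and base were read from 6 lists, with 97 genes in all, of which 56 were tested. By the criterion of p and fold change 3 were higher and 2 lower in HIF-1α-KD cells, 8.93% of those tested compared with 7.48% of all genes, and their median log2 fold change was -0.028. The 3 higher genes depended on single libraries: without HIF-1α-KD replicate 1 there were 0, without Mock replicate 2 there was 1, and without Mock replicate 1 there were 2 others, Hvcn1 and Slc9a9, neither of which was among the 3.

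Among the 12 other carbonic anhydrases, 6 were tested, 1 was higher (4.02% of all genes) and 0 were lower (3.46% of all genes), and Car4, Car8 and Car10 had no read in any library, which allows up to 3 reads per library. The higher gene was Car15, a membrane-anchored enzyme of mouse kidney, with normalized counts of 3.7, 7.7 and 20.5 in Mock against 26.5, 21.6 and 27.7 in HIF-1α-KD libraries. Its groups lay next to each other without overlap at very low counts (log2 fold change 1.45, standard error 0.62, limma adjusted p = 0.385), and it shares its strand with the overlapping gene Gm20518. Car14, another membrane enzyme, had 24.6, 55.5 and 20.5 in Mock against 211.5, 26.4 and 92.4 in HIF-1α-KD libraries (log2 fold change 1.37, limma adjusted p = 0.466). Car5b, the mitochondrial form, had a log2 fold change of -0.50 (limma adjusted p = 0.583). Car1, a red cell and colon enzyme, was not tested, with 9.8, 4.8 and 90.6 normalized counts in Mock against 39.4, 3.6 and 3.5 in HIF-1α-KD libraries. The highest value stood in Mock replicate 3, the library with the highest epithelial markers. The part of other cells in these low counts was not tested.

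Among 20 other bicarbonate and anion transporters and their regulators, 12 were tested, 2 were higher (4.02% of all genes) and 0 were lower (3.46% of all genes). Slc4a5, an electrogenic sodium-bicarbonate cotransporter, gave normalized counts of 92.3, 159.8 and 59.2 in Mock against 637, 151.1 and 169.8 in HIF-1α-KD libraries (log2 fold change 1.40, standard error 0.57, limma adjusted p = 0.375). HIF-1α-KD replicate 1 was far above the other 5 libraries, and Mock replicate 2 lay above HIF-1α-KD replicate 2. Slc26a9, a chloride channel and anion transporter, had 3.7, 11.5 and 18.1 in Mock against 66.0, 40.8 and 13.9 in HIF-1α-KD libraries, with overlap (log2 fold change 1.74, limma adjusted p = 0.381). The cotransporter Slc4a4 (log2 fold change -0.33) and the regulators Ahcyl1 (-0.093) and Ahcyl2 (0.040), which bind such transporters, were expressed at higher levels, with limma adjusted p-values of 0.666, 0.832 and 0.952.

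Of 16 sodium-proton exchangers and their partners, 10 were tested and 0 met the criterion in either direction, in limma, edgeR or DESeq2. At an unadjusted p under 0.05 in limma there was 1, the endosomal exchanger Slc9a9, named here after its values were seen. It gave 475.2, 398.1 and 375.7 against 545.3, 555.2 and 664.2 normalized counts, higher in each HIF-1α-KD library than in each Mock library (log2 fold change 0.50, SE 0.18, adjusted p = 0.329 in limma). Slc9a8 of the Golgi had a log2 fold change of 0.10 and the exchanger partner Chp1 of -0.31, with limma adjusted p-values of 0.849 and 0.526.

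Proton-coupled lactate export was the 1 list with lower genes, 2 of the 4 tested out of 6 listed, against 3.46% of all genes, with a median log2 fold change of -0.47. Slc16a3 (MCT4), which carries lactate out together with a proton, gave normalized counts of 8582, 11140 and 13750 in Mock against 4842, 4741 and 4996 in HIF-1α-KD libraries. The 3 HIF-1α-KD libraries were nearly alike and all lay below the lowest Mock library. Its log2 fold change was -1.17 (SE 0.18, limma adjusted p = 0.0362), a level 43.6% of that in Mock, and it was the 1 gene of the 6 lists past an adjusted p of 0.05. Leaving out any single library gave an adjusted p of 0.0509 to 0.163, with the direction kept each time. Bsg (basigin), the chaperone that brings these transporters to the membrane, had 26550, 21990 and 27550 in Mock against 12940, 16160 and 16400 in HIF-1α-KD libraries, again without overlap (log2 fold change -0.74, standard error 0.16, unadjusted p = 0.00134, limma adjusted p = 0.155). The related chaperone Emb had a log2 fold change of -0.14 (limma adjusted p = 0.809).

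Of the 25 subunits of the vacuolar proton pump, which acidifies lysosomes, 19 were tested, and 0 met the criterion in either direction, by limma, edgeR or DESeq2, with 0 at an unadjusted p under 0.05 in limma. Their median log2 fold change was -0.024, within a range of -0.40 to 0.69. The subunits with the highest FPKM were Atp6ap1 (log2 fold change -0.13), Atp6v0b (0.18) and Atp6v1b2 (-0.068), with limma adjusted p-values of 0.786, 0.694 and 0.873. Of 18 other proton pumps, proton channels and acid sensors, 5 were tested, 7 had no read in any library and 0 met the criterion by limma, edgeR or DESeq2. The proton channel Hvcn1 had 241.3, 236.4 and 142.5 in Mock against 271.1, 303.4 and 291.1 in HIF-1α-KD libraries (log2 fold change 0.52, limma adjusted p = 0.434). Its 2 groups did not overlap. Leukocytes also express Hvcn1, and their part in its counts was not tested. The acid-sensing channel Asic1 (-0.089) and the potassium channel Kcnk5 (0.34) had limma adjusted p-values of 0.927 and 0.648.

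**Figure D4:**
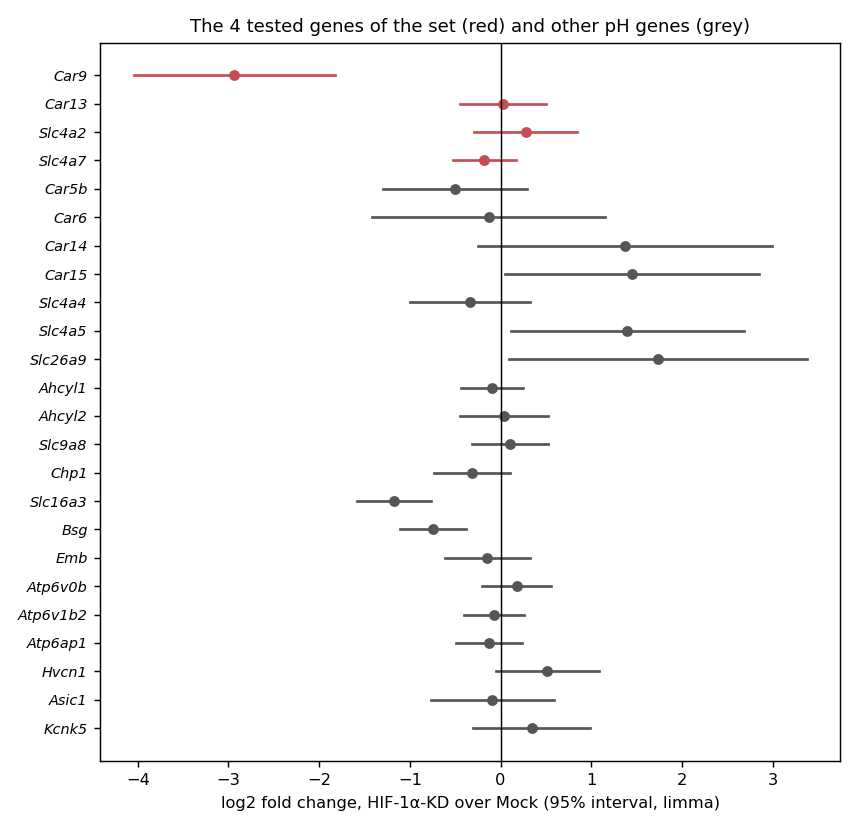
Log2 fold change of HIF-1α-KD over Mock (horizontal axis) with its 95% interval from limma for the 4 tested genes of the set (red) and 20 other pH genes named by rule (grey). Points are estimates from 3 libraries a group, and the intervals of Car9 (-4.04 to -1.83), Slc16a3 and Bsg lie wholly below 0, those of Car15, Slc4a5 and Slc26a9 lie wholly above 0, and those of Car13, Slc4a2, Slc4a7 and the other genes include 0.

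For reference, 10 genes known to be induced by hypoxia were read in the same fit. 9 of the 10 met the criterion in the lower direction (3.46% of all genes) and 7 passed an adjusted p of 0.05 in that direction (0.383% of all genes), with a median log2 fold change of -1.71. Car9 at -2.93 lay below the lowest of them, Bnip3, at -2.70.

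The genes most like Car9 across the 6 libraries, by the root mean square difference of log2 values after centring each gene on its own mean, were Nrn1 (0.27), Msln (0.35) and Dusp1 (0.41) among 12013 others. Nrn1 gave normalized counts of 630.3, 471.8 and 639.0 in Mock against 24.9, 62.4 and 94.7 in HIF-1α-KD libraries. As in Car9, Mock replicate 2 was the lowest of its group, and HIF-1α-KD replicate 3 was the highest of the other group. Msln had the same lowest and highest libraries in each group as Car9, with 4685, 2975 and 4122 against 284.7, 1036 and 1714. Dusp1, with 9328, 7946 and 4744 against 479.4, 1706 and 2339, differed from Car9 in that its lowest Mock library was replicate 3. For Car12, with 38 reads in all, the nearest genes were Syne1 (0.33), Akap9 (0.35) and Cep290 (0.37), and each was highest in HIF-1α-KD replicate 3, as Car12 was.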

How the data were processed

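RNA of sorted MC-38GFP tumor cells was compared between 3 Mock and 3 HIF-1α-KD libraries, grouped by the knockdown named in their labels. The authors trimmed single-end reads of a stranded poly-A kit, aligned them with STAR and counted them with featureCounts. The labels name GRCm38, the methods GRCh38, and the gene identifiers are mouse Ensembl.

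The deposited normalized counts (a signal, not raw reads) are gene counts that the authors scaled by a factor for each library. The authors also deposited FPKM, per kilobase of a width in bases, and the GC fraction of each gene, which was not used. The deposited log2 ratio, p-value and false discovery rate hold the authors' own comparison and were not used.

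Multiplying by the factor gave back reads, and 100% of values up to 300 reads were whole within 0.1. Depth was 19845852 to 30809138 reads on genes, and low counts limit precision. The test planned for normalized values was run, as the deposited values are not raw counts. Log2 of the normalized count plus 1 was fitted with limma 3.58.1 with a mean-variance trend, two-sided. The fit covered the 12014 genes left by filterByExpr (edgeR 4.0.16, minimum count of 10), with Benjamini-Hochberg adjustment over all of them. edgeR and DESeq2 1.42.0 on recovered reads were alternatives, as were other scaling, filters, pseudocounts (0.1 and 10), FPKM, a replicate block and left-out libraries. On simulated data for this comparison (12014 genes), limma found 91% of 4-fold and 35% of 2-fold changes with 5.97% of calls false, and DESeq2 93% and 57% with 15.3% false.

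The genes and lists were chosen with earlier results of these data known. Genes were named by rule: the 6 genes, Hif1a, list genes past an unadjusted p of 0.05 with a fold change of 1.5, the 3 highest by FPKM in each list, and the 3 genes nearest in pattern to Car9 and Car12. A gene that the rule names is not reported here. Family sums and transcript lengths were added after the values were seen. Positions came from GENCODE on GRCm38 by identifier, for 22570 genes. Promoters came from a set of RefSeq promoters, in which 4 of the 6 genes had an entry. Software was Python 3.11.15 with scipy 1.17.1, numpy 2.4.6, pandas 2.3.3 and matplotlib 3.10.9, and R 4.3.3.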

Additional observations from a re-analysis of the deposited data

How the results depend on the processing

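Car9 was lower in HIF-1α-KD cells under every alternative run, with log2 fold changes of -2.96 to -2.69 over changes of test, scaling, filter, pseudocount, unit and block, -3.37 without both libraries of replicate number 3 and -3.42 to -2.28 with single libraries left out. Its limma adjusted p of 0.0553 passed 0.05 with no filter (log2 fold change -2.93, adjusted p = 0.0425), with a pseudocount of 10 (-2.91, adjusted p = 0.0486) and with DESeq2 (-2.69, adjusted p = 0.00207), so the count of genes of the set past that threshold went from 0 to 1 in these 3, and was 0 to 1 with single libraries left out. The adjusted p ranged from 0.00207 to 0.0792 over the alternatives that kept all libraries and from 0.00934 to 0.267 with single libraries left out, and was 0.106 without both of replicate number 3. The cause was not tested.

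Leaving out both libraries of replicate number 3, chosen after seeing the data, turned the log2 fold change of Car13 to -0.039, of Ahcyl2 to -0.082 and of Atp6ap1 to 0.048, and edgeR gave -0.0073 for Ahcyl2. With single libraries left out, the log2 fold change ranged from -0.15 to 0.21 for Car13, -0.033 to 0.46 for Slc4a2, -0.56 to 0.47 for Car6, -0.55 to 0.0062 for Slc4a4, -0.18 to 0.012 for Ahcyl1, -0.17 to 0.21 for Ahcyl2, -0.064 to 0.22 for Slc9a8, -0.31 to 0.023 for Emb, -0.15 to 0.045 for Atp6v1b2 and -0.43 to 0.17 for Asic1. None of these genes passed an adjusted p of 0.05 in any of these fits. The count of other pH genes that were higher, 3, was 0 to 3 with single libraries left out. edgeR and DESeq2 counted Car14 in place of Car15. With no filter on low counts the count of lower pH genes was 3, as the anion transporter Slc26a3, with 7 reads in all, was added. Slc16a3 missed an adjusted p of 0.05 with library size scaling (0.0575) and without both libraries of replicate number 3 (0.164), and Bsg passed it in DESeq2 (0.00334).

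Replicate numbers gave no sign of pairing: deviations of same-numbered libraries correlated at -0.139, -0.123 and 0.023, and those of differently numbered ones at -0.072 to 0.162. With 3 libraries a group, this check cannot decide whether libraries were paired. With a replicate block the count of higher pH genes was 1, Slc16a3 had an adjusted p of 0.0727, and 0 genes of the whole table passed an adjusted p of 0.05 in limma (1324 at an unadjusted p under 0.05), where 47 did without it. edgeR, DESeq2, the replicate block and the authors' mark of presence gave no value for Car2 and Car12, whose low counts limit what can be said of them. Scaling by library size or FPKM moved the median of all genes from 0.021 to 0.077 and 0.078.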
